A study of Mus musculus with 3 samples.

Results

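The cells described here were Il2-high CD4+ T cells, the stimulated cells in which at least 5 *Il2* transcripts were captured. They were chosen by their own *Il2* count. In each stimulated library, barcodes with 4056 or more unique molecular identifiers (UMIs, the tags by which captured RNA molecules are told apart) and under 15% of UMIs from mitochondrial genes were kept, and those with 5 or more *Il2* UMIs were the members. There were 891 members among the 14846 stimulated cells of this filter, in a series of 32505 deposited barcodes. They were compared, within each library, with the kept cells that had 0 *Il2* UMIs.

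The series holds single-cell RNA libraries of CD4+ T cells from spleens of C57BL/6 mice, enriched for naive cells and sorted as live (7-AAD-negative) cells positive for CD3 and CD4. The WT library and the IFT20-KO library described below both held cells stimulated over 24 h by antibodies to CD3 and CD28, each at 1 μg/mL, which engage the T cell receptor and its costimulator. WT cells came from Ift20 f/f mice without Cre, so both genotypes carried the floxed allele. IFT20-KO cells came from Ift20 f/f CD4 cre mice, in which Cre is driven by the *Cd4* promoter and is therefore active in all T cells that pass through a CD4-positive stage, CD8 T cells included. A further library held unstimulated WT cells kept in DPBS for 0 h. Each condition had 1 library, the number of mice behind each library is not given in the labels, and cells of 1 library are not replicates. No test was therefore made. Intervals are exact at the 95% level and cover counting error only, and genotype cannot be told apart from mouse, culture, library or depth.

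Interleukin-2 is the growth factor that T cells secrete early after antigen recognition. Its gene is silent in resting T cells. Transcription needs the calcium-activated factor NFAT together with AP-1 and NF-κB, so it takes both the T cell receptor and CD28. The secreted protein binds the receptor chains encoded by *Il2ra*, *Il2rb* and *Il2rg*, acts through JAK1, JAK3 and STAT5, and is consumed by regulatory T cells. In a stimulated population the cytokine is made by a fraction of the cells, while most of them respond to it.

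*Il2* lies on the minus strand at chr3:37120523-37125959 in GRCm38 (GENCODE M21). The 245 bases just upstream of it, chr3:37125960-37126204 on the minus strand, are printed because the regulation that defines these cells converges there. The sequence is that of RefSeq on GRCm38.p6, and the capitals mark the letters GGAAA, the core that NFAT binds, read on either strand.

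Il2 upstream region: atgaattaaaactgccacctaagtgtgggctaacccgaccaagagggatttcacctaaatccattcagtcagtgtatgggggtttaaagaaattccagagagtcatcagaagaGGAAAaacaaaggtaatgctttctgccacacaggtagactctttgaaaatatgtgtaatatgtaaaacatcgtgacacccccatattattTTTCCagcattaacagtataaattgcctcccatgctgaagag

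The core occurred 2 times, beginning at -137 as GGAAA and at -47 as TTTCC, its reverse complement, counted from the RefSeq start of the gene. The same letters occurred on either strand in 54.8% of the 32851 promoter stretches of this length in the RefSeq table. The AP-1 letters TGANTCA, which do not overlap GGAAA, were not in this stretch and were in 6.66% of all of them. A match of letters is a description of the sequence and was not tied to binding by any measurement here.

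The labels were checked first on *Ift20*, the deleted gene, which encodes a subunit of the intraflagellar transport complex (chr11:78536361-78541737, plus strand). Its level was 65.9 UMIs per 1000000 UMIs (CPM) in WT members and 6.73 CPM in IFT20-KO members, a log2 ratio of -3.29 (-3.81 to -2.82). In cells with 0 *Il2* UMIs the levels were 78.8 and 6.75 CPM. *Ift20* was thus low in both kinds of cells of the IFT20-KO library. The libraries' kit is given as a 5′ kit in the labels and as a 3′ kit in the study's methods, and which transcript end was counted, inside or outside the deleted exons, is therefore uncertain.

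The members carried T cell transcripts. All 11 genes of a T cell identity list, among them *Cd3e*, *Cd3d*, *Trac* and *Cd4*, were above 100 CPM in members of both libraries, and none differed by 1.5-fold from cells with 0 *Il2* UMIs. The median log2 ratio of the list was -0.04 in WT and 0.01 in IFT20-KO, or 0.03 and 0.04 when weighted to the members' depths. Transcripts of *Cd3e*, which encodes the receptor's epsilon chain, were at 745 CPM in WT members and 922 CPM in WT cells with 0 *Il2* UMIs, and at 751 and 955 CPM in IFT20-KO.

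Markers of other cell types were scarce. All 13 myeloid and dendritic cell markers, the likes of *Lyz2* and *Itgam*, had 0 UMIs in WT members, which allows up to 0.277 CPM for each. In IFT20-KO members the 13 summed to 0.364 CPM. The 7 erythroid and platelet markers had 0 UMIs in WT members. NK cell markers summed to 5.17 and 2.91 CPM in members of WT and IFT20-KO, against 6.42 and 6.71 CPM in cells with 0 *Il2* UMIs, with *Nkg7* and *Klrd1* the most abundant. The 4 CD8 and gamma-delta markers that the files list summed to 9.14 and 6.18 CPM, most of it *Cd8b1*. B cell markers were *Ighm* almost alone, at 94.9 CPM in WT members and 152 CPM in WT cells with 0 *Il2* UMIs, while *Ms4a1*, *Pax5*, *Cd22* and *Ebf1* had 0 UMIs in WT members. Apart from the myeloid markers of IFT20-KO, which stood at 0.316 CPM in the comparison cells, none of these lists was summed higher in members, and their part in the results was not tested.

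Some barcode sequences occurred in more than 1 library. The unstimulated and stimulated WT libraries shared 125 barcodes, the unstimulated WT and IFT20-KO libraries 141, and the stimulated WT and IFT20-KO libraries 207. No barcode was a member in both stimulated libraries, with 0 shared of 572 and 319.

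In the WT library 572 of 7602 kept cells were Il2-high, or 7.52% (6.94% to 8.14%). In the IFT20-KO library 319 of 7244 were, or 4.40% (3.94% to 4.90%). The share was 1.71 times higher in WT. The intervals did not overlap, but they cover counting error only and not variation between libraries. Of the 5263 kept unstimulated cells, 11 had any *Il2* UMI and 1 reached the threshold, with 5 *Il2* UMIs among its 5213 UMIs. Il2-high cells were thus found almost entirely after stimulation, and in both genotypes they were a minority of the stimulated cells.

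**Figure D1:**
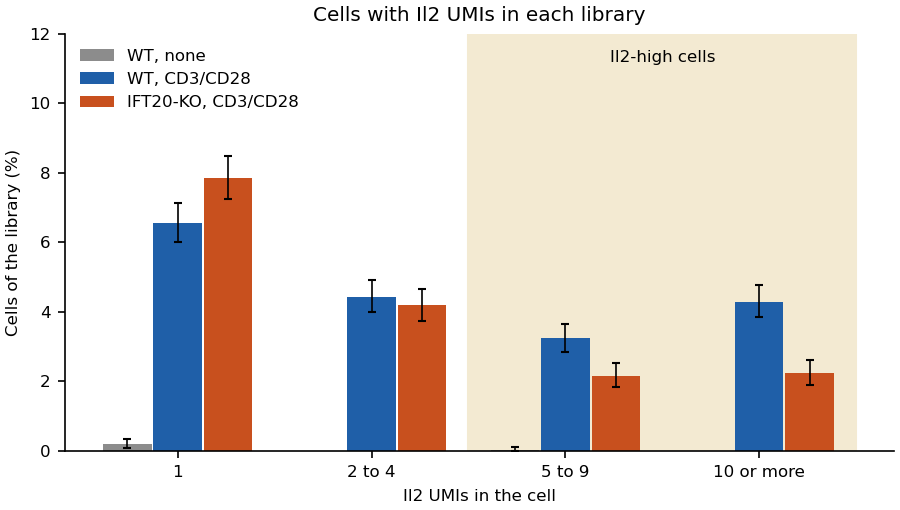
Share of kept cells (%, y axis) by the number of *Il2* UMIs in the cell (x axis) in the WT library without stimulation and in both stimulated libraries, with exact Clopper-Pearson 95% intervals. The 2 right-hand classes are the Il2-high cells; cells with 10 or more *Il2* UMIs made up 4.29% of WT and 2.24% of IFT20-KO cells.

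The libraries were not equally deep, and this bears on a threshold in UMIs. Kept cells had a median of 13952 UMIs in WT, 11716 in IFT20-KO and 5233 in the unstimulated library. With every cell thinned at random to 4056 UMIs, 160 of the 7602 WT cells still had 5 or more *Il2* UMIs, or 2.10% (1.79% to 2.45%). Among IFT20-KO cells 84 did, or 1.16% (0.926% to 1.43%). The ratio of the shares was then 1.82, so WT stayed above IFT20-KO at equal depth. At 1 or more *Il2* UMIs after thinning, the shares were 10.9% (10.3% to 11.7%) and 9.51% (8.85% to 10.2%). The shares thus stood further apart for cells with 5 or more *Il2* UMIs than for cells with any. How much of the share with any *Il2* UMI came from free RNA, gauged below, was not tested.

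*Il2* transcripts were concentrated in few cells. The kept WT cells held 13290 *Il2* UMIs and the kept IFT20-KO cells 6022, and the members held 89.1% and 76.6% of them. A median member had 11 *Il2* UMIs in WT (quartiles 7 and 19) and 10 in IFT20-KO (quartiles 6.5 and 17). The highest cell had 644 in WT and 119 in IFT20-KO. The 58 WT and 32 IFT20-KO members with most *Il2* UMIs held 46.2% and 32.5% of the members' *Il2* UMIs. As a share of the cell's own UMIs, the median member was at 0.0638% *Il2* in WT and 0.0648% in IFT20-KO. These are the counts by which members were chosen, and they are given as a description.

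Just outside the threshold, 77 WT cells and 77 IFT20-KO cells had 4 *Il2* UMIs. Just inside it, 59 and 51 cells had 5. The median depth was 16862 UMIs at 4 and 17828 at 5 *Il2* UMIs in WT, and 13582 and 14125 in IFT20-KO. For *Cd40lg*, the ligand of CD40 that helper cells show to B cells, the level was 267 CPM at 4 and 310 CPM at 5 *Il2* UMIs in WT, and 198 and 211 CPM in IFT20-KO. *Lta*, encoding the cytokine lymphotoxin alpha, was at 194 and 338 CPM in WT and at 154 and 130 CPM in IFT20-KO. The chemokine gene *Ccl4* was at 368 and 199 CPM in WT and at 328 and 384 CPM in IFT20-KO. Cells on the 2 sides of the threshold thus differed little in depth, while *Lta* and *Ccl4* differed between them in WT in opposite directions.

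Some *Il2* UMIs may come from free RNA in the droplets. Cells with 1 or more UMIs of *Foxp3*, the lineage factor of regulatory T cells, which do not normally make IL-2, were taken as a gauge. In WT 17 of 149 such cells (11.4%, 6.79% to 17.6%) had an *Il2* UMI at a median of 14418 UMIs, against 18.5% of all kept cells. In IFT20-KO 31 of 213 did (14.6%, 10.1% to 20.0%) at a median of 11285 UMIs, against 16.4%. The share with 5 or more *Il2* UMIs was 4.70% (1.91% to 9.44%) and 2.82% (1.04% to 6.03%) in these cells, intervals that hold the share of members among all cells. A share of cells with any *Il2* UMI was therefore read as expression above this gauge in WT alone. By the same rule the share of members was above the gauge in neither library. Cells with a *Foxp3* UMI were not free of high *Il2* counts, and whether all of them were regulatory T cells was not tested.

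Members were larger libraries of RNA than the cells they were compared with. Their median depth was 18213 UMIs against 13403.5 for cells with 0 *Il2* UMIs in WT, and 16045 against 11412 in IFT20-KO. A deeper cell reaches 5 UMIs more easily, so the ratios were also computed in a depth-standardised form, plotted for 24 genes with the highest and lowest ratios and given in the text where it changed a count. For that form the cells with 0 *Il2* UMIs were weighted over 10 bins of UMIs per cell so that their depths matched those of the members. The median mitochondrial share was 1.12% in WT members and 1.29% in WT cells with 0 *Il2* UMIs, and 0.956% and 1.09% in IFT20-KO.

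A barcode may hold 2 cells. As a gauge, barcodes with 2 or more UMIs of each of 2 or more T cell receptor beta variable (Trbv) genes were counted, since most T cells express 1 beta chain. They made up 34.6% of members and 27.3% of cells with 0 *Il2* UMIs in WT, and 47.3% and 33.6% in IFT20-KO. At 4056 UMIs per cell the shares were 9.97% (7.64% to 12.7%) and 8.59% (7.90% to 9.31%) in WT and 14.4% (10.8% to 18.8%) and 11.3% (10.5% to 12.1%) in IFT20-KO. The excess in members at full depth was thus smaller once depth was equal. No doublet caller was run and no barcode was removed as a doublet. Without the barcodes with several beta chains the Il2-high share was 6.92% in WT and 3.54% in IFT20-KO.

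Beta chain use was broad among the members. Of the members with 1 such Trbv gene, 345 in WT and 151 in IFT20-KO, 20 and 18 different Trbv genes were in use. The most frequent was *Trbv3* in both, at 15.9% (12.2% to 20.2%) and 13.9% (8.82% to 20.5%), against 13.0% and 13.5% of cells with 0 *Il2* UMIs. The widest gap from the comparison cells was for *Trbv13-2* in IFT20-KO, at 7.95% (4.17% to 13.5%) of members and 14.9% (13.7% to 16.1%) of cells with 0 *Il2* UMIs. In WT the same gene stood at 13.6% and 13.1%. Il2-high cells thus spanned many beta chains.

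The question of the main comparison was what else distinguishes the cells that hold *Il2* transcripts. UMIs were summed over members and over cells with 0 *Il2* UMIs, and expressed as CPM of all genes but *Il2*. A gene was counted as higher or lower at 1.5-fold or more, if it reached 25 CPM in either group. In WT 144 of 4538 genes (3.17%) were higher in members and 133 (2.93%) lower. In IFT20-KO 144 of 4609 (3.12%) were higher and 130 (2.82%) lower. Of the 4442 genes of that size in both libraries, 106 (2.39%) were higher in both and 96 (2.16%) lower in both, and 0 passed the fold in opposite directions. Under scaling by the median of gene ratios the split was 103 higher and 164 lower in WT, 112 and 156 in IFT20-KO, and 79 and 116 in both. Without barcodes with several beta chains, 151 genes were higher and 122 lower in both libraries. The counts in each library also moved with other choices, as given at the end. More genes were higher with cells thinned or without these barcodes, more were lower at a minimum of 10 CPM, and fewer passed at 100 CPM or 2-fold. Of the genes of that size in both that were higher in WT, 76.3% were also higher in IFT20-KO, and 74.1% the other way round, and for lower genes the shares were 75.0% and 85.0%. Across the 4442 genes the log2 ratios of the libraries had a Pearson correlation of 0.92 and a Spearman correlation of 0.89, as a description across genes, which are not independent.

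**Figure D2:**
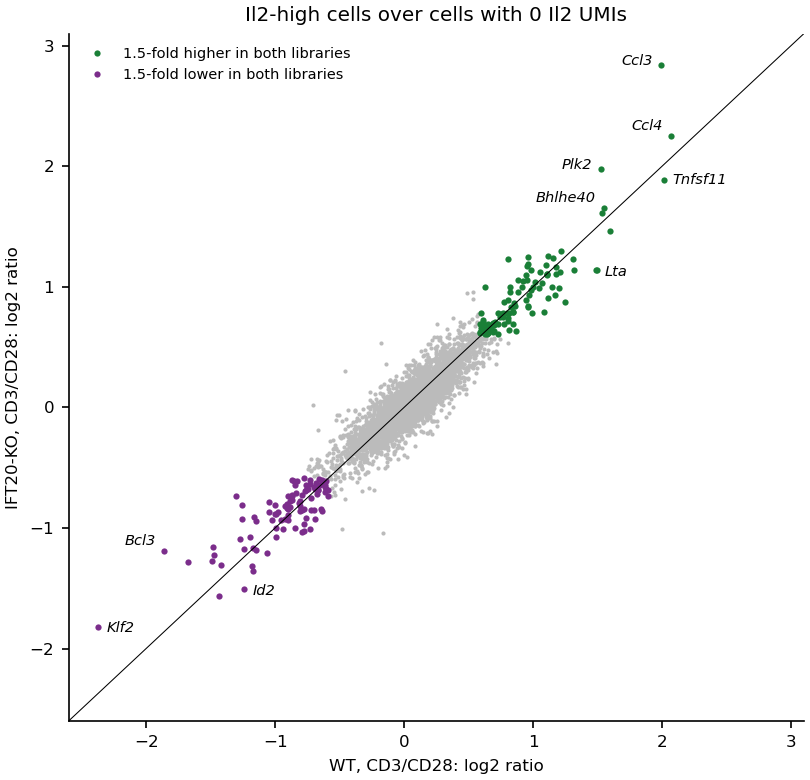
Log2 ratio of CPM, Il2-high cells over cells with 0 *Il2* UMIs, in WT (x axis) and IFT20-KO (y axis), 1 point for each of 4442 genes with at least 25 CPM; the line marks equal ratios. The 106 genes higher in both libraries lie at the upper right with *Ccl4*, *Ccl3* and *Tnfsf11* outermost, and the 96 lower in both at the lower left with *Klf2* outermost.

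With the comparison cells weighted to the members' depths, 92 genes were higher in both libraries and 50 lower in both, of which 81 and 49 were also counted without weighting. The lower genes therefore depended more on depth than the higher ones. The median log2 ratio over all genes of this size was 0.07 in WT and 0.05 in IFT20-KO, against which the lists below are to be read.

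Among genes of this size in both libraries, ranked by the weaker of the 2 ratios, *Ccl4* and *Ccl3* had the highest ratios. *Ccl4*, encoding a chemokine that attracts other leukocytes, was at 481 CPM in WT members and 114 CPM in cells with 0 *Il2* UMIs, for a log2 ratio of 2.07 (2.02 to 2.12). In IFT20-KO it was at 525 and 110 CPM, for a log2 ratio of 2.25 (2.19 to 2.31). The related chemokine gene *Ccl3* was at 100.1 and 25.2 CPM in WT and at 102 and 14.2 CPM in IFT20-KO, log2 ratios of 1.99 and 2.84. Both genes had 0 UMIs in the kept unstimulated cells, which allows up to 0.100 CPM. Depth-standardised log2 ratios were 2.01 and 2.09 for *Ccl4* and 2.09 and 2.64 for *Ccl3*. Both chemokines were thus about 4-fold or more higher in members of either genotype. The related *Ccl1*, below the size limit, went the other way in WT by summed UMIs, with 10 in members and 1014 in cells with 0 *Il2* UMIs. The log2 ratio was -3.64 (-4.71 to -2.76) and rested on few cells. Without thinning, a *Ccl1* UMI was found in 0.874% of WT members and 0.581% of WT cells with 0 *Il2* UMIs. In thinned cells the shares were 0.175% (0.00443% to 0.970%) and 0.226% (0.124% to 0.379%), with overlapping intervals. In IFT20-KO *Ccl1* had 0 and 8 UMIs.

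At equal depth these chemokines were found in a minority of the members. With cells thinned to 4056 UMIs, a *Ccl4* UMI was found in 29.7% (26.0% to 33.7%) of WT members and 10.3% (9.51% to 11.0%) of cells with 0 *Il2* UMIs, and in 42.9% (37.4% to 48.6%) and 13.9% (13.0% to 14.8%) in IFT20-KO. Without thinning the 4 shares were 40.0%, 18.4%, 59.6% and 23.8%. *Ccl3* was found in 11.2% and 16.0% of thinned WT and IFT20-KO members. Most Il2-high cells therefore had no *Ccl4* UMI at equal depth.

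Of the 28 genes of the cytokine and chemokine list, 8 were of sufficient size in both libraries, and 4 of these (*Ccl3*, *Ccl4*, *Tnf* and *Lta*) were higher in members of both libraries and 1 lower. *Lta* was at 389 CPM in WT members and 139 CPM in cells with 0 *Il2* UMIs, and at 222 and 101 CPM in IFT20-KO, log2 ratios of 1.49 and 1.14. *Tnf*, encoding the inflammatory cytokine TNF, was at 184 and 77.4 CPM in WT and at 126 and 68.5 CPM in IFT20-KO, log2 ratios of 1.25 and 0.88. *Il16*, encoding a chemoattractant precursor of resting T cells, was lower, at 40.5 and 96.7 CPM in WT and 56.5 and 99.2 CPM in IFT20-KO. *Ltb* and *Mif*, which encode lymphotoxin beta and an abundant constitutive cytokine, had log2 ratios between 0.06 and 0.12 in both libraries. The list's median log2 ratio was 0.79 in WT and 0.59 in IFT20-KO.

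Cytokines of differentiated helper cells were barely present. *Ifng*, the T helper 1 cytokine, had 3 UMIs over all WT members and 213 over WT cells with 0 *Il2* UMIs. The log2 ratio of the summed UMIs was -3.13 (-5.42 to -1.56) and rested on few cells. Without thinning, an *Ifng* UMI was found in 0.350% of WT members and 0.371% of the comparison cells, shares that were close. In IFT20-KO *Ifng* had 0 UMIs in members, which allows up to 0.545 CPM, and 24 in the comparison cells. *Il4*, the T helper 2 cytokine, had 6 and 1 UMIs in WT and IFT20-KO members. *Il21* had 0 UMIs in members of either library. *Csf2*, encoding GM-CSF, had 16 and 12 UMIs, or 1.48 CPM in WT members against 0.738 CPM in the comparison cells. *Il3* had 10 UMIs in WT members, which lay in 2 cells, against 2 in the 6194 WT cells with 0 *Il2* UMIs, and 0 UMIs in IFT20-KO. Each of these genes thus rested on few UMIs in the members.

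*Cd40lg* and *Tnfsf11* stood out among ligands of the TNF family. Of 10 listed genes 3 were of sufficient size, and these 2 were higher in members of both libraries. *Cd40lg* was at 323 CPM in WT members and 115 CPM in cells with 0 *Il2* UMIs, for a log2 ratio of 1.49 (1.44 to 1.55), and at 202 and 91.5 CPM in IFT20-KO, a log2 ratio of 1.14 (1.05 to 1.23). *Tnfsf11*, which encodes RANKL, was at 67.7 and 16.7 CPM in WT and at 103 and 27.8 CPM in IFT20-KO, log2 ratios of 2.02 and 1.89. *Tnfsf14*, encoding LIGHT, was below the size limit, with 23.4 and 4.42 CPM in WT and 18.5 and 4.90 CPM in IFT20-KO. *Tnfsf8*, encoding CD30 ligand, had log2 ratios of 0.43 and 0.52, and the low *Tnfsf4*, encoding OX40 ligand, 0.32 and 0.56. The median of the list was 1.49 in WT and 1.14 in IFT20-KO. At 4056 UMIs per cell, a *Cd40lg* UMI was found in 61.2% (57.1% to 65.2%) of WT members and 27.6% (26.4% to 28.7%) of the comparison cells, and in 50.8% (45.2% to 56.4%) and 26.4% (25.3% to 27.5%) in IFT20-KO. Unthinned, these were 88.5%, 51.7%, 84.6% and 49.1%.

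**Figure D3:**
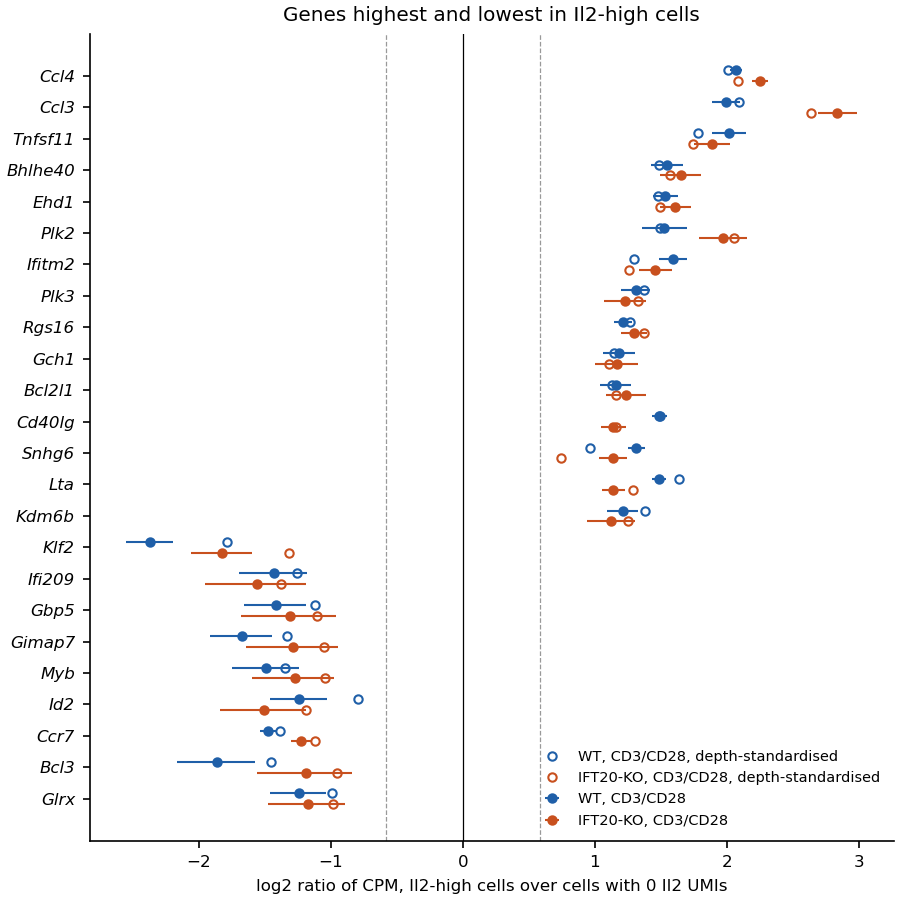
Log2 ratio of CPM (x axis), Il2-high cells over cells with 0 *Il2* UMIs, for the 15 highest and 9 of the 10 lowest genes by the weaker of the 2 libraries; filled points with exact 95% counting intervals are unweighted, open points depth-standardised, dashed lines mark 1.5-fold. These genes kept their side of 1.5-fold after depth standardisation, with *Klf2* moving to -1.79 in WT.

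The other genes among the 15 highest were of varied function. *Bhlhe40*, a transcription factor that supports cytokine production in helper cells, was at 69.9 and 23.8 CPM in WT and at 78.2 and 24.9 CPM in IFT20-KO, log2 ratios of 1.55 and 1.65. *Ehd1*, an ATPase of endocytic recycling, had log2 ratios of 1.54 and 1.61. The polo-like kinase genes *Plk2* and *Plk3* had 1.53 and 1.31 in WT and 1.98 and 1.23 in IFT20-KO. *Rgs16*, which shortens G protein signals, was at 198 and 85.5 CPM in WT, with log2 ratios of 1.21 and 1.30. *Gch1*, the entry enzyme of tetrahydrobiopterin synthesis, had 1.18 and 1.17. *Bcl2l1*, encoding the survival protein BCL-XL, had 1.16 and 1.24. *Kdm6b*, a histone H3 lysine 27 demethylase, had 1.21 and 1.12. *Ifitm2*, a membrane protein with close relatives among which reads may be shared, had 1.60 and 1.46, and the noncoding host gene *Snhg6* had 1.32 and 1.14. These genes were ranked by the weaker library, so a shared direction was set by the choice.

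Of 22 listed NFAT, AP-1 and NF-κB genes 14 were of sufficient size, and 3 were higher in both libraries and 0 lower. These were *Fosl1*, an AP-1 subunit (log2 ratios 0.97 in WT and 0.93 in IFT20-KO), *Nfkb2*, the p100 subunit of the noncanonical pathway (0.95 and 1.17), and *Rel*, the c-Rel subunit tied to *Il2* induction (0.81 and 0.64). *Nfatc1*, which encodes an NFAT protein, was at 135 and 126 CPM in WT and at 133 CPM in both groups of IFT20-KO. The list's median was 0.43 and 0.39. Depth-standardised, *Junb*, an AP-1 subunit, was also past 1.5-fold, with 0.60 and 0.61. NFAT activity depends on the location of the protein, which transcript levels do not show.

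The next list held genes induced through the T cell receptor. Of its 28 genes 21 were of sufficient size in both libraries, 9 were higher in both and 0 lower, and the median was 0.61 in either library. *Nr4a1*, an orphan nuclear receptor whose transcript follows receptor signal strength, was at 304 and 140 CPM in WT and at 219 and 102 CPM in IFT20-KO, log2 ratios of 1.11 and 1.10. Its relatives *Nr4a2* and *Nr4a3* had 1.08 and 1.20 in WT and 0.79 and 0.99 in IFT20-KO. *Nfkbid* and *Nfkbia*, which encode NF-κB-binding proteins of the IκB family, had 1.12 and 0.83 in WT and 0.91 and 0.95 in IFT20-KO. *Cd69*, a marker of early activation, and *Dusp2* and *Dusp5*, phosphatases of the MAP kinases, had 0.61, 0.65 and 0.66 in WT and 0.66, 0.62 and 0.64 in IFT20-KO. After depth standardisation 13 of the listed genes were higher in both libraries, with *Egr1*, *Egr2*, *Myc* and *Nfkbiz* added. *Irf4*, whose transcript also follows receptor signals, was nearly equal in the 2 groups, with 0.05 and 0.13.

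The receptor's own signalling parts were, by contrast, close to level. Of 24 listed genes 21 were of sufficient size, 0 were higher in both libraries and 2 lower, and the medians were -0.01 and -0.03, or 0.03 and -0.01 when depth-standardised. The 2 were *Cd28*, the costimulator engaged by the antibody (305 and 489 CPM in WT, 325 and 513 CPM in IFT20-KO), and *Rasgrp1*, an activator of RAS (log2 ratios -0.66 and -0.69). Depth-standardised, *Rasgrp1* came to -0.42 and -0.38, inside 1.5-fold, so that *Cd28* alone was lower in both libraries. The adaptor gene *Lcp2*, encoding SLP-76, had 0.67 in WT and 0.55 in IFT20-KO, on either side of the 1.5-fold limit. *Lck* and *Zap70*, the kinases that start the signal, had ratios between -0.03 and 0.13.

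The genes by which cells respond to IL-2 did not follow *Il2*. Of 16 listed genes 12 were of sufficient size, 0 were higher in both libraries and 2 lower, with medians of -0.34 and -0.20, or -0.21 and -0.09 when depth-standardised. *Il2ra*, the receptor's inducible alpha chain, was at 187 and 175 CPM in WT and at 196 and 168 CPM in IFT20-KO, log2 ratios of 0.10 (0.03 to 0.16) and 0.22 (0.12 to 0.31). *Il2rb* had -0.59 and -0.39 and *Il2rg* 0.10 and 0.18. *Cish*, a feedback inhibitor induced by STAT5, was at 46.1 and 80.8 CPM in WT and at 40.0 and 68.7 CPM in IFT20-KO, log2 ratios of -0.81 and -0.78. *Bcl2*, a survival gene, had -0.94 and -1.01. After depth standardisation 0 of these genes passed 1.5-fold in both libraries, with *Cish* at -0.49 and -0.46 and *Bcl2* at -0.57 and -0.70. Below the size limit, *Socs2* and *Socs3*, which encode feedback inhibitors of cytokine signals, had 41 and 28 UMIs in WT members and 31 and 12 in IFT20-KO members, with depth-standardised log2 ratios of -1.82 and -1.32 in WT and of -1.32 and -1.26 in IFT20-KO. Of the receptor chains, *Il2ra* and *Il2rg* were thus within 1.5-fold of the comparison cells in both libraries, and *Il2rb* was past it on the lower side in WT without weighting, but inside it at -0.45 when depth-standardised.

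Costimulators and checkpoint genes were mixed. Of 23 listed genes 15 were of sufficient size, 6 were higher in both libraries and 2 lower, with medians of 0.58 and 0.47. *Tnfrsf4*, encoding OX40, was the most abundant, at 666 and 310 CPM in WT and at 608 and 283 CPM in IFT20-KO, log2 ratios of 1.11 and 1.10. *Pdcd1*, encoding the inhibitory receptor PD-1, was at 273 and 137 CPM in WT and 317 and 159 CPM in IFT20-KO, log2 ratios of 1.00 in either library. *Cd200*, *Cd274* (PD-L1), *Btla* and *Pdcd1lg2* (PD-L2) were also higher, with log2 ratios between 0.65 and 1.11. *Ctla4*, the inhibitory partner of CD28, was lower, at 12.4 and 25.6 CPM in WT and 18.0 and 31.0 CPM in IFT20-KO, as was *Cd28*. Among the inhibitory receptors *Pdcd1* and *Btla* were thus higher and *Ctla4* lower in the pooled members. Depth-standardised, *Pdcd1lg2* came to 0.55 and 0.58, inside 1.5-fold, and *Slamf1*, encoding a costimulatory receptor of lymphocytes, to 0.62 and 0.60, past it.

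Genes of the resting state were lower. Of 18 listed naive transcripts 14 were of sufficient size, 0 were higher and 8 lower in both libraries, with medians of -0.80 and -0.70. *Klf2*, a quiescence factor that drives lymphoid homing, had the lowest ratio of all genes ranked, at 24.7 and 128 CPM in WT, with a log2 ratio of -2.37 (-2.55 to -2.20), and at 29.1 and 103 CPM in IFT20-KO, -1.82 (-2.06 to -1.60). *Ccr7*, the lymph node homing receptor, was at 195 and 542 CPM in WT and at 258 and 604 CPM in IFT20-KO, log2 ratios of -1.48 and -1.23. *Igfbp4*, *Ms4a4b*, *Tcf7*, *Satb1* and *Txnip* were among the others. For comparison, the unstimulated library had *Klf2* at 1035 CPM, *Igfbp4* at 1044 CPM and *Ccr7* at 704 CPM. The stimulated cells with 0 *Il2* UMIs were thus far below the unstimulated library for *Klf2* and *Igfbp4*, and much nearer to it for *Ccr7*.

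The naive transcripts moved with depth as well. Depth-standardised, 5 of the 8 stayed 1.5-fold lower in both libraries, namely *Klf2* (-1.79 and -1.32), *Ccr7* (-1.39 and -1.12), *Tcf7*, *Ms4a4b* and *Txnip*. *Igfbp4* came to -0.54 and -0.76. *Lef1*, also a naive gene, differed little, with 0.03 and -0.20. Also among the 10 lowest were *Gimap7*, a GTPase of lymphocyte survival (-1.68 and -1.29), *Myb*, a transcription factor of immature and cycling cells (-1.49 and -1.28), *Id2*, an inhibitor of E proteins (-1.24 and -1.51), *Bcl3*, a nuclear partner of NF-κB p50 and p52 (-1.86 and -1.19), and the thiol enzyme *Glrx* (-1.25 and -1.18), besides *Ifi209* and *Gbp5*.

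Interferon-induced genes were lower too. Of 35 listed genes 13 were of sufficient size in both libraries, 0 were higher and 8 lower in both, with medians of -0.76 and -0.84. *Gbp2*, a guanylate-binding GTPase, was at 135 and 305 CPM in WT and at 54.0 and 121 CPM in IFT20-KO, log2 ratios of -1.17 in either library. *Igtp*, an immunity-related GTPase, had -1.48 and -1.16 and *Irf1* was at 59.7 and 120 CPM in WT and at 33.6 and 62.2 CPM in IFT20-KO. *Ifi47*, *Gbp4*, *Gbp5* and the immunoproteasome subunit gene *Psmb8* were among the others, and of 2 genes of interferon-inducible families outside the list, *Ifi209* had -1.43 and -1.56 and *Ifitm2* 1.60 and 1.46. Depth-standardised, 7 of the 8 stayed 1.5-fold lower, all but *Psmb8*. *Bst2* and *Isg20*, which are also induced by interferon, had log2 ratios between 0.28 and 0.50, with *Isg20* below the size limit in IFT20-KO. The GBP genes have close relatives among which reads may be shared.

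**Figure D4:**
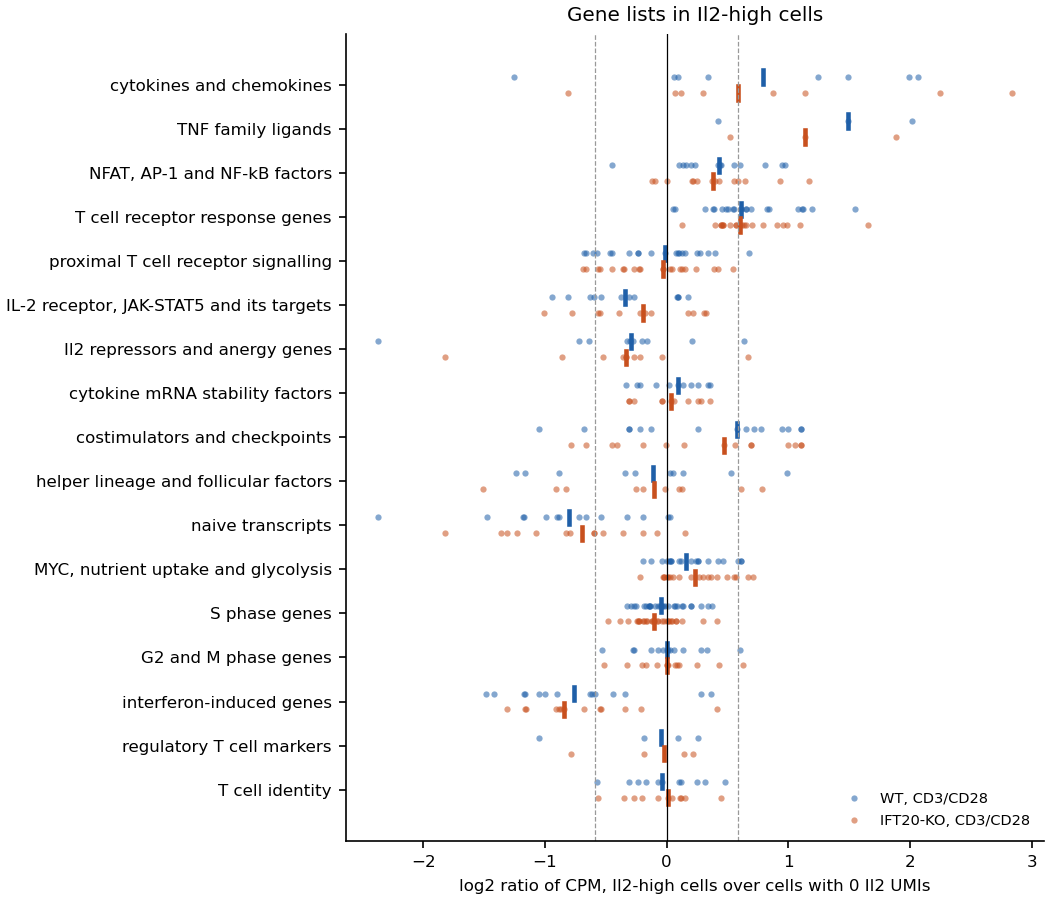
Log2 ratio of CPM, Il2-high cells over cells with 0 *Il2* UMIs (x axis), for each gene with at least 25 CPM in 17 gene lists (y axis), WT above IFT20-KO in each row; vertical bars are medians, dashed lines mark 1.5-fold. Receptor response genes lie mostly to the right (median 0.61 in either library), naive and interferon-induced genes to the left (medians -0.80 and -0.76 in WT), and T cell identity and cell cycle genes around 0.

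Factors known to repress *Il2* or to mark anergy had medians of -0.29 in WT and -0.34 in IFT20-KO, or -0.17 and -0.18 when depth-standardised, with log2 ratios under 0 for 8 and 9 of the 10 genes of sufficient size among 20 listed. At 1.5-fold 1 was higher in both libraries (*Tgif1*, log2 ratios 0.64 and 0.67) and 2 lower. Beside *Klf2* the other was *Ikzf3*, encoding Aiolos, a repressor of *Il2* (-0.64 and -0.86, and -0.38 and -0.58 when depth-standardised, inside 1.5-fold). *Dgka*, the diacylglycerol kinase of anergic cells, had -0.30 and -0.27, and *Ikzf1* and *Cblb* lay between -0.34 and -0.16. Of 16 listed cytokine mRNA stability factors 11 were of sufficient size and 0 passed 1.5-fold in both libraries, with medians of 0.09 and 0.04. *Zfp36*, whose protein promotes decay of cytokine messages, had -0.09 and -0.04.

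Helper lineage and follicular factors were mixed. Of 22 listed genes 10 were of sufficient size, 1 was higher in both libraries and 3 lower. *Id3*, an inhibitor of E proteins, was higher, at 380 and 191 CPM in WT and at 389 and 225 CPM in IFT20-KO, and *Tcf7* and *Id2* were among the lower. Depth-standardised, *Runx1*, encoding a transcription factor of T cell development, was also past 1.5-fold, with 0.63 and 0.73. *Bcl6*, the follicular helper factor, had 16 and 11 UMIs in WT and IFT20-KO members, or 1.48 CPM in WT members against 1.52 CPM in the comparison cells. *Tbx21*, the T helper 1 factor, was at 11.4 and 13.7 CPM in WT. *Foxp3* had 11 UMIs in members of either library, and 308 and 320 UMIs in cells with 0 *Il2* UMIs, with log2 ratios of -1.78 (-2.80 to -0.92) in WT and -1.14 (-2.15 to -0.28) in IFT20-KO. Of the 7 regulatory T cell markers 4 were of sufficient size, and *Ctla4* alone was lower in both libraries.

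Growth and cell cycle genes were nearly even. Of the 24 listed genes of MYC, nutrient uptake and glycolysis, 20 were of sufficient size and 1, the glucose transporter gene *Slc2a1*, was higher in both libraries, with log2 ratios of 0.61 and 0.71. *Myc* had 0.61 and 0.57. Depth-standardised, *Slc2a1* came to 0.57 and 0.69, short of 1.5-fold in WT, and *Myc* to 0.64 and 0.60, past it in both. *Ldha*, encoding the lactate dehydrogenase of glycolytic cells, was at 2551 and 2221 CPM in WT, with a log2 ratio of 0.20. Of 38 S phase genes 28 were of sufficient size in both libraries and 0 passed the fold, with medians of -0.04 and -0.10, or -0.24 and -0.25 when depth-standardised. Of 52 G2 and M phase genes 14 were, and 1 passed it, *Psrc1*, a spindle gene (0.60 and 0.63, and 0.41 and 0.45 when depth-standardised, inside 1.5-fold). Il2-high cells did not differ by cycling genes to the extent that they did by receptor response genes.

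Members were not uniform, and several of these transcripts were graded with *Il2* itself. *Ccl4* was at 273 CPM in WT members with 5 to 9 *Il2* UMIs and at 628 CPM in those with 10 or more, and at 359 and 671 CPM in IFT20-KO. *Tnfsf11* was at 37.4 and 89.1 CPM in WT and at 61.6 and 139 CPM in IFT20-KO. *Lta* was at 277 and 468 CPM in WT and at 156 and 280 CPM in IFT20-KO. *Tnfrsf4* was at 547 and 750 CPM in WT and at 552 and 658 CPM in IFT20-KO. These 4 genes were thus higher in the members with most *Il2* in both libraries.

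Other genes differed most between cells with 0 and with 2 to 4 *Il2* UMIs. *Ccr7* was at 542, 427, 208, 185 and 201 CPM in WT cells with 0, 1, 2 to 4, 5 to 9 and 10 or more *Il2* UMIs, and at 604, 503, 299.7, 248 and 267 CPM in IFT20-KO. *Klf2* was at 128, 85.7, 25.8, 32.3 (27.2 to 38.0) and 19.4 (16.1 to 23.1) CPM in WT, the last class being lower again, and at 103, 69.9, 31.9, 27.1 and 30.8 CPM in IFT20-KO. *Pdcd1* was at 137, 185, 255, 278 and 270 CPM in WT and at 159, 188, 282, 324 and 311 CPM in IFT20-KO. Cells with 2 to 4 *Il2* UMIs, which were not members, were thus nearer to the members than to cells with 0 in these genes. The classes of this and the preceding paragraph were not matched for depth. In WT the median was 13403.5 UMIs at 0, 16453 at 2 to 4 and 18817.5 at 10 or more *Il2* UMIs. With WT cells at 0 weighted to the members' depths, *Klf2* was at 85.4 CPM and *Ccr7* at 510 CPM. The part of depth in these steps was not tested. *Il2ra* stayed between 162 and 193 CPM in WT and between 168 and 202 CPM in IFT20-KO over the 5 classes. *Cd40lg* was higher with each class in WT, from 115 to 349 CPM, while in IFT20-KO it was at 207 CPM with 5 to 9 and at 197 CPM with 10 or more *Il2* UMIs.

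**Figure D5:**
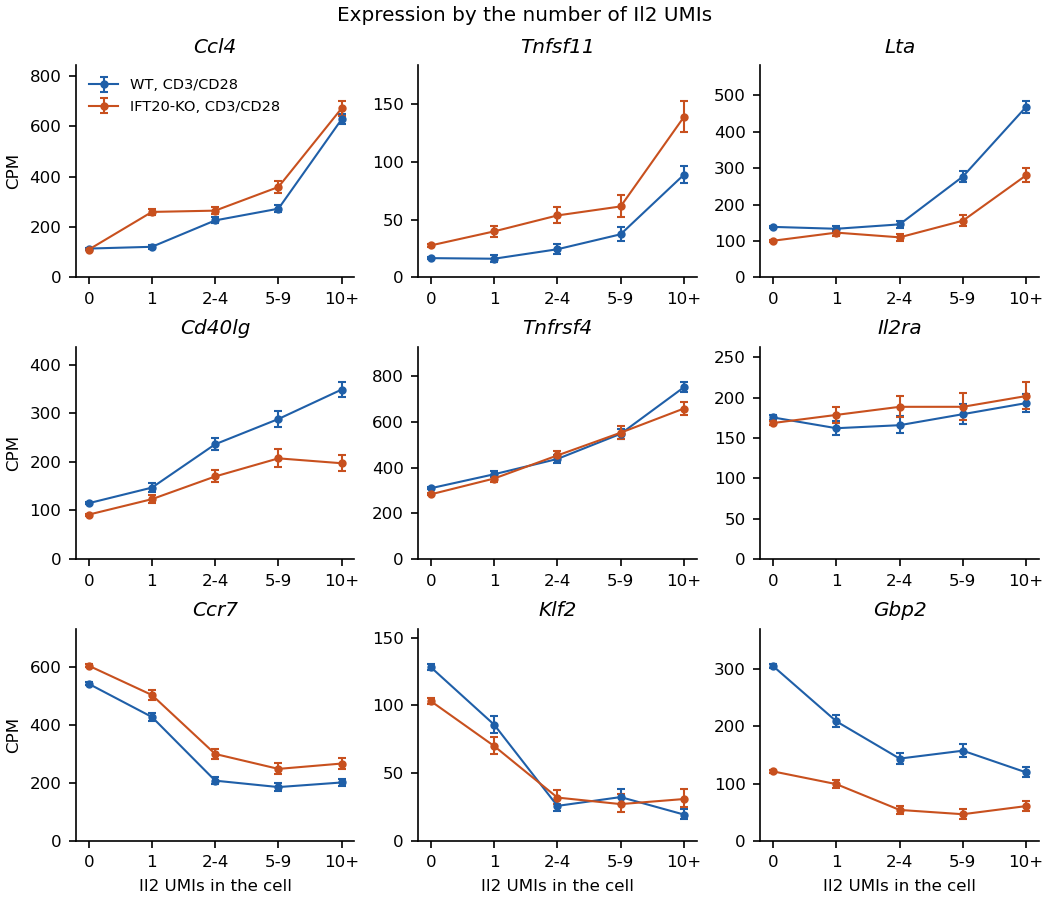
CPM (y axis) of 9 genes in cells grouped by their number of *Il2* UMIs (x axis) in stimulated WT and IFT20-KO libraries, with exact Poisson 95% intervals. *Ccl4*, *Tnfsf11* and *Lta* were highest with 10 or more *Il2* UMIs, *Ccr7* and *Klf2* were near their low level with 2 to 4 *Il2* UMIs, and *Il2ra* was nearly flat.

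The last comparison asked how members of the IFT20-KO library differed from members of the WT library. Of 4529 genes that reached 25 CPM in either, 20 (0.442%) were 1.5-fold or more higher in IFT20-KO and 30 (0.662%) lower. The split depended on the processing, with 150 higher and 89 lower when cells were thinned to 4056 UMIs. The counts were 93 and 63 at a minimum of 10 CPM and 49 and 33 with the mean of per-cell fractions. With members at 10 or more *Il2* UMIs they were 34 and 29. Of the main counts, 7 of the 20 and 19 of the 30 passed the same limit in the same direction in cells with 0 *Il2* UMIs. In those cells 10 and 29 of 4468 genes did. Most of these 30 lower genes were therefore lower in both kinds of cells, and whether any difference was particular to the members was not tested.

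Below *Ift20*, the lowest ratios were those of *Ly6a*, encoding the surface protein Sca-1, at 200.3 CPM in WT and 30.5 CPM in IFT20-KO members (log2 ratio -2.71, -2.95 to -2.49), and *Gbp2*, at 135 and 54.0 CPM (-1.32, -1.51 to -1.14). In cells with 0 *Il2* UMIs their log2 ratios were -2.93 and -1.33. *Sh2d1a*, the signalling adaptor SAP, was at 28.8 and 12.5 CPM in members, and the protease inhibitor gene *Serpinb6b* at 27.0 and 11.8 CPM, with log2 ratios of -1.20 and -1.19 against -0.88 and -0.79 in cells with 0 *Il2* UMIs. All 4 were lower in IFT20-KO in both kinds of cells.

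The highest ratios were smaller. *Nrn1*, encoding the membrane-anchored protein neuritin, was at 71.2 CPM in WT and 132 CPM in IFT20-KO members, a log2 ratio of 0.90 (0.75 to 1.04). *Marcksl1*, an actin-binding substrate of protein kinase C, was at 161 and 282 CPM (0.81). The lipid kinase gene *Pip4k2a* (0.79), the proteasome assembly gene *Psmg3* (0.78) and the ribosomal protein pseudogene *Rpl7a-ps5* (0.74), whose reads may belong to its parent gene, followed. In cells with 0 *Il2* UMIs these 5 genes had log2 ratios of 0.75, 0.69, 0.34, 0.76 and 0.34.

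Among genes higher in Il2-high cells of both libraries, some differed between the genotypes. By summed UMIs *Lta* and *Cd40lg* were lower in IFT20-KO than in WT members, with log2 ratios of -0.81 (-0.90 to -0.72) and -0.68 (-0.78 to -0.58). They had -0.46 and -0.33 in cells with 0 *Il2* UMIs. An *Lta* UMI was found in similar shares of WT and IFT20-KO members, 73.3% and 74.0%. In thinned cells these were 45.6% (41.5% to 49.8%) and 40.4% (35.0% to 46.0%), with overlapping intervals. For *Cd40lg* the thinned shares were 61.2% and 50.8%. *Tnfsf11* was higher in IFT20-KO members, 0.60 (0.44 to 0.76), and had 0.73 in cells with 0 *Il2* UMIs. By summed UMIs *Ccl4* and *Ccl3* had 0.13 and 0.03 in members, against -0.05 and -0.82 (-0.93 to -0.71) in cells with 0 *Il2* UMIs. The shares of cells with these transcripts did not follow the sums. A *Ccl3* UMI was found in 5.12% of WT and 6.54% of IFT20-KO cells with 0 *Il2* UMIs, or 2.55% and 3.14% when thinned. For *Ccl4* the shares of thinned members were 29.7% (26.0% to 33.7%) in WT and 42.9% (37.4% to 48.6%) in IFT20-KO. *Tbx21* was below the size limit, at 11.4 CPM in WT members and 1.27 CPM in IFT20-KO members, and at 13.7 and 1.29 CPM in cells with 0 *Il2* UMIs. The partners of *Il2* thus did not shift in 1 direction between the genotypes.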

How the data were processed

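Single-cell libraries of CD4+ T cells were analysed, WT with and without stimulation and IFT20-KO with it. The authors aligned the reads to mm10 and deposited raw counts of UMIs per gene and barcode from Cell Ranger 3.1.0, the version in the file headers, without normalization or cell annotation. The kept cells held 29876738 (unstimulated WT), 112586119 (stimulated WT) and 89877195 (IFT20-KO) UMIs.

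UMIs were summed per group of cells and scaled to CPM over all of the 31053 genes but *Il2*. Intervals were exact binomial for ratios, Poisson for CPM and Clopper-Pearson for shares, and an upper limit for 0 UMIs was 3 counts. Thinning drew UMIs without replacement with a fixed seed. The calculation was tested on simulated data. Python 3.11.15, numpy 2.4.6, scipy 1.17.1, pandas 2.3.3 and matplotlib 3.10.9 were used.

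The members and gene lists were chosen with earlier results of these data known. Genes named are *Il2* and *Ift20*, the 15 highest and 10 lowest by the weaker library, the 5 highest and 5 lowest of IFT20-KO over WT members (without receptor segments and mitochondrial genes), and listed genes past the fold in both libraries with a few abundant others. Any other listed gene that is named, low ones such as *Il3* and *Tbx21* included, was chosen after its values were seen. *Aldoa*, whose symbol occurs more than once, *Trgc1* and *Trgc2* were not analysed here, and a few genes, 1 of the 10 lowest among them, are not reported here. Alternatives covered scaling, summing, thinning, depth weights, the limits on *Il2*, UMIs, mitochondrial share, CPM and fold, *Il2ra*-positive cells, very deep cells and barcodes with several beta chains.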

Additional observations from a re-analysis of the deposited data

Results flagged for a closer look

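Barcodes under the minimum of 4056 UMIs, which entered no comparison, also held *Il2*. Of 2713 such barcodes in the stimulated WT library 40 had 5 or more *Il2* UMIs (1.47%), and of 6688 in the IFT20-KO library 48 did (0.718%), against 0 of 2990 in the unstimulated library, which allows a share of up to 0.100%. They were singled out because the signal lay in data outside the main measurement and above the unstimulated control.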

How the results depend on the processing

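The 24 plotted genes highest and lowest in Il2-high cells kept their direction and their side of 1.5-fold in each library under all 11 alternatives in which they were recomputed. The counts depended on the limits, and which direction held more genes was not stable. Under median-ratio scaling and at 10 CPM more genes were lower than higher in each library, the opposite of the main count, as in WT with 3 or more *Il2* UMIs or only *Il2ra*-positive cells. Between IFT20-KO and WT members more genes were higher under thinning, at 10 CPM, with per-cell fractions and with 10 or more *Il2* UMIs, where the main count had more lower. With cells thinned, 250 genes were higher in WT members, and 287 higher and 198 lower in IFT20-KO, while 150 were higher and 89 lower in IFT20-KO than in WT members. With 10 or more *Il2* UMIs, 224 were higher in WT, and 34 higher in IFT20-KO than WT members. At a minimum of 10 CPM, 271 were lower in WT, 221 higher and 264 lower in IFT20-KO, 176 lower in both, and 93 higher and 63 lower between members. At 100 CPM the higher and lower counts were 52 and 37 in WT, 49 and 32 in IFT20-KO, 41 and 26 in both, and 6 and 10 between members. At 2-fold they were 33 and 29, 35 and 26, 24 and 17, and 0 and 7. With depth weights, 76 were lower in WT, 82 in IFT20-KO and 50 in both. Without barcodes with several beta chains, 223 were higher in WT and 243 in IFT20-KO, and with per-cell fractions 49 were higher between members. The cause of these moves was not tested.

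The share of Il2-high cells was above that of IFT20-KO in WT under each alternative. It was 2.10% and 1.16% with cells thinned, 10.1% and 6.61% at 3 or more *Il2* UMIs, 4.29% and 2.24% at 10 or more, 4.93% and 2.97% with *Il2* at 0.05% or more of the cell's UMIs, 6.15% and 2.64% with over 200 genes as the only lower limit, and 6.92% and 3.54% without barcodes with several beta chains. With at least 8000 UMIs per cell it was 8.03% in WT and 5.04% in IFT20-KO, a ratio of 1.59. Each condition had 1 library, so no replicate could be left out. No paired analysis was possible because each condition had 1 library. Depth limits the genes of few UMIs, such as *Il3* and *Ifng*.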
